A study of Rattus norvegicus with 4 samples.

Results

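The Sox family of transcription factors was followed through the cells of the adult rat pituitary. The set comprised 10 genes chosen by symbol (Sox2, Sox3, Sox4, Sox5, Sox6, Sox8, Sox9, Sox10, Sox11 and Sox21). Of these, 8 had a row among the 32883 genes of the count table, while Sox3 and Sox4 were not analysed here. Messenger RNA was counted in single cells of female Sprague Dawley rats aged 75 days that were cycling at random, with no treatment or genotype contrast. One preparation came from 30 dissected glands, with 1 library of anterior lobes and 1 of posterior lobes, and the other from 30 whole glands, dispersed as 1 suspension and run on 2 lanes. All libraries pooled tissue from many animals, so the values carry no spread between animals, and the lanes are technical repeats.

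Sox proteins bind DNA through an HMG box, a domain that bends the double helix, and they usually act with a partner factor. They fall into subgroups with related sequence: Sox2, Sox3 and Sox21 belong to group B, Sox4 and Sox11 to group C, Sox5 and Sox6 to group D, and Sox8, Sox9 and Sox10 to group E. In the pituitary, Sox2 and Sox9 are known as factors of the folliculostellate cells, which secrete no classical hormone, lie between the endocrine cells of the anterior lobe and include its stem cells, and of the pituicytes, the glia of the posterior lobe.

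Promoter sequence was available for part of the set in RefSeq (rat build GRCr8), with 5 of the 10 members matched by symbol. The 250 bases before the annotated start are printed for Sox2, Sox11 and Sox6, because these 3 members were all present in folliculostellate and pituicyte cells and parted among the endocrine classes. Sequences run 5′ to 3′ in the direction of the gene. Capitals mark matches, on either strand, to the core of the SOX recognition sequence (ACAAT), the CCAAT box (CCAAT), the GC box (GGGCGG) or the TATA box (TATAAA).
Sox2, chr2:119464881-119465130, plus strand: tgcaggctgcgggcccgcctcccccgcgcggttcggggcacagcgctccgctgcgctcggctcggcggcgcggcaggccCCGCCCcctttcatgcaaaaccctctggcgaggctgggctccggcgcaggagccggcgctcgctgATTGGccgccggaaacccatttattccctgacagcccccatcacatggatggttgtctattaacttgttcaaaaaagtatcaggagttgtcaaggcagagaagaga
Sox11, chr6:49738795-49739044, minus strand: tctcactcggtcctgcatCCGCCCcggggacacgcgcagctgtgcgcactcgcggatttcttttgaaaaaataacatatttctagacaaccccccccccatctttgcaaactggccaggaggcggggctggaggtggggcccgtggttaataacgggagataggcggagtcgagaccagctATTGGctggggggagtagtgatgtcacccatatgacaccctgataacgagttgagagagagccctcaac
Sox6, chr1:179665372-179665621, minus strand: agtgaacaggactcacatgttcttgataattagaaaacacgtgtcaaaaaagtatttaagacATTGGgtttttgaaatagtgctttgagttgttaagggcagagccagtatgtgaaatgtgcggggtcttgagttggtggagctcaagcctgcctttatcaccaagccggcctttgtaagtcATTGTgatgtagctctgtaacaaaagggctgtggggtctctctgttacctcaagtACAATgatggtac

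The Sox2 stretch was rich in G and C, at 64.4% with 23 CpG dinucleotides, and held a CCAAT box 106 bases and a GC box 171 bases before the start, both on the reverse complement. The Sox11 stretch held the same pair at 69 and 232 bases, with 56.8% GC and 14 CpG. The Sox6 stretch differed in composition, with 42.8% GC and 3 CpG, and held the SOX core at 13 and 68 bases and a CCAAT box at 188 bases. None of these 3 windows held the TATA box. Over 33469 rat promoters of the same length the median GC content was 51.2% and the median number of CpG was 5. The SOX core occurred in 30.0%, the CCAAT box in 34.0%, the GC box in 30.5% and the TATA box in 12.9% of them, so that each match is a frequent one and a description only.

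The 4 libraries held between 61981865 and 72754998 unique molecular identifiers (UMIs, each a counted RNA molecule), and 19777 of 32455 barcodes were kept as cells, with medians from 9572.5 to 10604.5 UMIs per cell. Clustering without any Sox gene gave 25 clusters, of which 23 were named from marker genes as 13 classes, and 211 cells stayed unnamed. Folliculostellate-like cells numbered 847 in the anterior library, 327 in the posterior library and 926 and 761 in the whole-gland lanes. Pituicyte-like cells numbered 1105 in the posterior library and 53 and 44 in the lanes, and Schwann-like cells, the glia of peripheral nerve, 63, 9 and 11. The 6 folliculostellate markers summed to 1833 to 2195 CPM in folliculostellate-like cells, and the 6 pituicyte markers summed to 2787 to 3803 CPM in pituicyte-like cells against 8.50 to 35.2 CPM in folliculostellate-like cells. The folliculostellate markers were less exclusive. S100b, 1 of them, was at 610 and 611 CPM in posterior pituicyte-like cells with and without a Sox2 UMI. In anterior folliculostellate-like cells it was at 932 and 1212 CPM. No folliculostellate-like cluster had a marker of its class among its leading genes. Of all barcode sequences, 89 occurred in more than 1 library, 33 of them among kept cells.

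Levels, as CPM, are the UMIs of a gene summed over the cells of a class, divided by all UMIs of those cells and scaled to the usual common total. Intervals in brackets are exact 95% intervals that cover counting error only. For tests, the sums of each class in each preparation were used, and edgeR's quasi-likelihood test with Benjamini-Hochberg adjustment over 14675 genes compared 11 classes over the 2 preparations. A gene was called at an adjusted p under 0.05 and a log2 fold change of at least 1 in either direction. Of the 8 members measured, 6 passed the filter on low counts, and Sox10 (115 UMIs in 66 cells) and Sox21 (2 UMIs in 2 cells) did not. The 5 hormone classes of the anterior lobe are cells like thyrotrophs, gonadotrophs, corticotrophs, somatotrophs and lactotrophs, and the 6 endocrine classes are these plus the melanotroph-like cells of the intermediate lobe.

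Sox2 (ENSRNOG00000012199), a factor that maintains stem and progenitor cells in many tissues, was the member with the most UMIs, 13180 in 3845 cells. In folliculostellate-like cells its level was 312 CPM in the anterior library, 267 in the posterior library and 331 and 339 in the lanes. In pituicyte-like cells it was 327 CPM in the posterior library and 264 and 297 in the lanes. The ranges of these classes overlapped. Schwann-like cells held 180 CPM in the posterior library and 144 and 256 in the lanes, on 52, 9 and 11 UMIs. The posterior interval (134 to 236) lay below both other glial classes, while those of the lanes (66.1 to 274 and 128 to 459) reached them.

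A Sox2 UMI was present in 80.3% of folliculostellate-like cells of the anterior library, 75.8% of the posterior library and 78.7% and 80.7% of the lanes. With each cell thinned to 2000 UMIs, the share was 46.8% in the anterior library (38 shallower cells left out), 43.9% in the posterior library (38 left out) and 48.9% over both lanes (118 left out). Lactotroph-like cells, a secretory class taken here to lack the gene, gave thinned shares of 0.0448%, 0.664% and 0.0288% in the same order, although they were deeper, with medians of 15119, 26911 and 16234 UMIs against 6381, 7962 and 5945 in folliculostellate-like cells. Detection in the folliculostellate-like cells thus lay far above that class in every library.

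**Figure D1:**
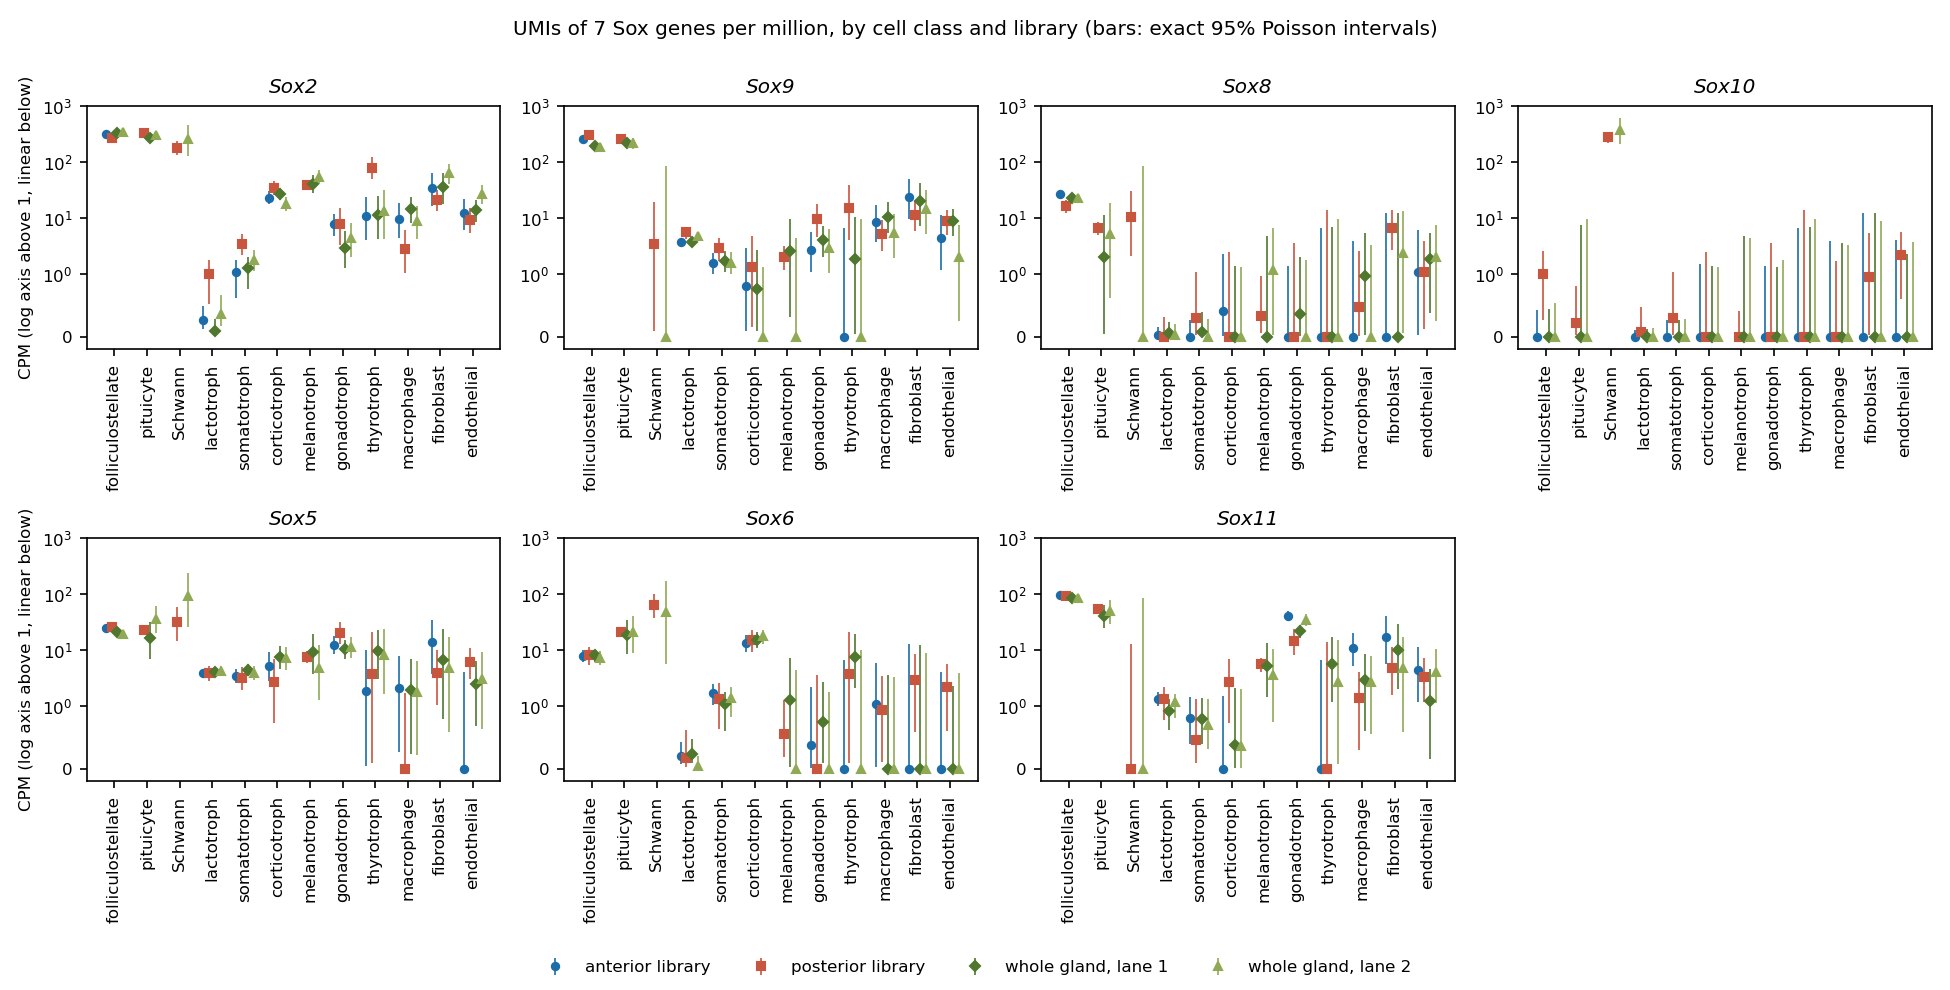
Level of 7 Sox genes in CPM (log axis above 1 and linear below) by cell class, with 1 point per library and exact 95% Poisson intervals; all classes are marker-based ("-like") and groups under 10 cells are not drawn. Sox2 and Sox9 are highest in folliculostellate and pituicyte cells, Sox10 in Schwann cells, and Sox11 also stands high in gonadotrophs.

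Sox9 (ENSRNOG00000002607), a group E factor of glial, stem and cartilage cells, followed the same pair of classes. Folliculostellate-like cells held 257 CPM in the anterior library, 304 in the posterior library and 192 and 186 in the lanes. Pituicyte-like cells held 259 CPM in the posterior library and 215 and 217 in the lanes, inside that range. A Sox9 UMI was present in 60.7%, 56.3%, 52.4% and 48.2% of folliculostellate-like cells, and after thinning in 31.0% (anterior), 26.3% (posterior) and 24.0% (both lanes). In contrast to Sox2, Sox9 was near 0 in Schwann-like cells, with 1 UMI in the posterior library, 1 in lane 1 and 0 in lane 2.

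Sox8 (ENSRNOG00000018841), a close relative of Sox9, was scarcer. Its level in folliculostellate-like cells was 26.7 CPM in the anterior library, 16.3 in the posterior library and 22.6 and 23.3 in the lanes. Pituicyte-like cells held 6.71 CPM in the posterior library and 2.03 and 5.16 in the lanes, all below every folliculostellate-like value. In the summed hormone classes Sox8 gave 2 UMIs in the anterior library and 5 over both lanes. The ratio of folliculostellate-like to summed hormone cells was 716 (196 to 5949) in the anterior library and 436 (185 to 1350) in the whole glands.

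Sox10 (ENSRNOG00000011305), the group E factor that specifies Schwann cells and drives their myelin genes, was found almost wholly in Schwann-like cells, which held 101 of its 115 UMIs. Its level there was 273 CPM in the posterior library (217 to 341) and 96.3 and 373 CPM in the lanes, the last pair resting on 6 and 16 UMIs. A Sox10 UMI was present in 61.9%, 55.6% and 81.8% of those cells. In folliculostellate-like cells it gave 0 UMIs in the anterior library and in both lanes and 4 UMIs in the posterior library. For the anterior library, 0 of 847 cells allows, at 3 counts, a share of up to 0.354% of cells with a Sox10 UMI, which is no limit on cells that express it. Pituicyte-like cells gave 2 UMIs in the posterior library and 0 in the lanes, while Sox9 was at 259 CPM there and near 0 in Schwann-like cells. Schwann-like cells were too few in the whole glands for a test.

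Sox11 (ENSRNOG00000030034), a group C factor of neural and other progenitors, had 3553 UMIs in 1826 cells, fewer than Sox2 and Sox9 and more than any other member. Folliculostellate-like cells held 94.6 CPM in the anterior library, 91.7 in the posterior library and 85.3 and 82.8 in the lanes, the narrowest range between libraries of the 3 most counted members. Pituicyte-like cells held 54.6 CPM in the posterior library and 40.6 and 49.0 in the lanes, below all 4 folliculostellate-like values. Schwann-like cells gave 0 UMIs at a median depth of 4045 UMIs per cell, and 0 of 83 cells allows, at 3 counts, a share of up to 3.61% of cells with a Sox11 UMI. Gonadotroph-like cells also held it, as described with the endocrine classes.

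Sox5 (ENSRNOG00000027869) and Sox6 (ENSRNOG00000020514) are group D factors, which lack an activation domain of their own and assist Sox9 in cartilage. Sox5 was at 25.0 CPM in folliculostellate-like cells of the anterior library, 26.1 in the posterior library and 21.0 and 19.5 in the lanes, and at 23.2, 16.2 and 36.1 CPM in pituicyte-like cells of the posterior library and the lanes. It was also present at low level in endocrine cells, for example at 3.87, 3.90, 4.05 and 4.26 CPM in lactotroph-like cells. Sox6 was at 7.92, 8.04, 8.05 and 7.27 CPM in folliculostellate-like cells and higher, at 20.9, 18.3 and 20.6 CPM, in pituicyte-like cells. Its highest level was in Schwann-like cells of the posterior library, 62.3 CPM on 18 UMIs. Sox6 was thus higher in pituicyte-like than in folliculostellate-like cells of every library, while the ranges of Sox5 overlapped.

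Sox21 (ENSRNOG00000052579), a group B factor that counters Sox2 at some targets, was close to undetected. It gave 1 UMI in a folliculostellate-like cell of the anterior library and 1 in a lactotroph-like cell of lane 1. At this depth no class can be ranked for it.

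Folliculostellate-like cells were then compared with the hormone classes, the contrast between the non-endocrine network of the anterior lobe and its secretory cells. All 6 tested members were called higher, against 22.8% of all genes tested. The median log2 fold change of the 6 was 5.81, against 0.09 over all genes. Sox9 was higher by 6.90 ± 0.13 on the log2 scale (SE, edgeR adjusted p = 6.8305e-23) and Sox2 by 6.32 ± 0.13 (edgeR adjusted p = 3.123e-22). Sox11 was higher by 5.31 ± 0.13 (edgeR adjusted p = 2.6665e-21). The Sox9 and Sox11 sizes depend in part on nearly empty classes. Thyrotroph-like sums of the dissected and whole glands held 0 and 1 Sox9 UMIs, and corticotroph-like sums 2 and 2. For Sox11 the corticotroph-like sums held 0 and 2 UMIs. With the hormone classes summed into 1 group the fits gave 5.48 for Sox9, 6.66 for Sox2 and 4.46 for Sox11. Sox8 was higher by a fitted 8.35 ± 0.32 (edgeR adjusted p = 1.1598e-16), a size that depends on the prior count because thyrotroph-like cells held no Sox8 UMI in either sum. The group D members differed least, Sox6 by 2.28 ± 0.29 (edgeR adjusted p = 2.0902e-07) and Sox5 by 1.66 ± 0.14 (edgeR adjusted p = 2.3698e-10).

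Against the hormone cells summed into 1 group, in which the abundant lactotroph- and somatotroph-like cells weigh most, Sox2 was 156-fold higher in the anterior library (129 to 191) and 157-fold higher in the whole glands (136 to 181). Sox9 was 85.0-fold (72.5 to 100.4) and 58.0-fold (51.6 to 65.5) higher, and Sox11 31.3-fold (26.4 to 37.3) and 37.2-fold (32.2 to 43.2) higher. Sox5 and Sox6 were 5.89-fold and 6.63-fold higher in the anterior library and 4.31-fold and 5.43-fold higher in the whole glands. The order of the members by fold was the same in both preparations.

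Pituicyte-like cells were compared with the same hormone classes, so the 2 comparisons share those samples. All 6 members were called higher, against 20.8% of all genes, with a median log2 fold change of 5.29 against 0.07 over all genes. Sox9 was higher by 6.92 ± 0.15, Sox2 by 6.19 ± 0.15 and Sox11 by 4.40 ± 0.17 on the log2 scale. With the hormone classes summed into 1 group these values were 5.50, 6.51 and 3.53. Sox6 was higher by 3.58 ± 0.30 (edgeR adjusted p = 2.7593e-10) and Sox5 by 1.68 ± 0.18. Sox8 had a fitted difference of 6.22 ± 0.53 (edgeR adjusted p = 5.741e-10). By counts, 60 pituicyte-like Sox8 UMIs of the posterior library stood against 2 in the hormone cells of the anterior library, and 3 against 5 in the whole glands.

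**Figure D2:**
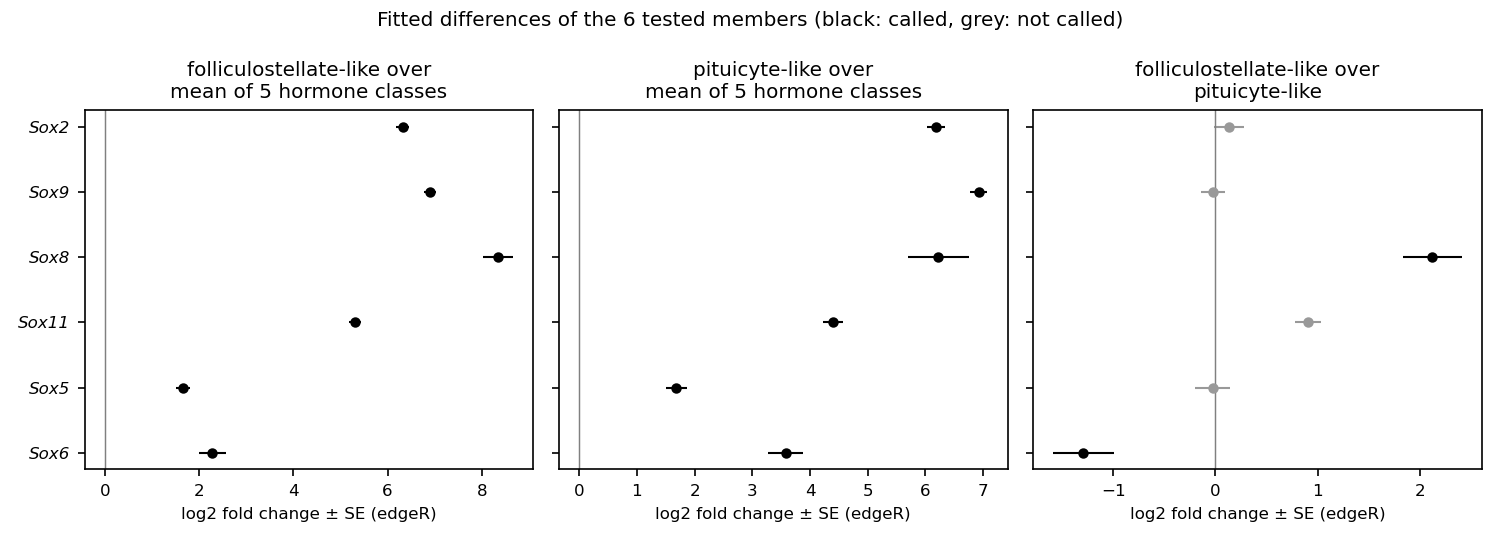
Fitted log2 fold changes with approximate standard errors (from the F statistic of the edgeR test) of the 6 tested members in 3 comparisons, with called members in black and others in grey. All 6 lie right of 0 in both comparisons with hormone classes, and between the glial classes Sox8 lies to the right and Sox6 to the left.

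In the direct comparison of folliculostellate-like with pituicyte-like cells, 1 of the 6 members was called higher and 1 lower, shares near those of all genes. Sox8 was higher in folliculostellate-like cells, by 2.12 ± 0.29 on the log2 scale (edgeR adjusted p = 1.5338e-06), 1 of 6 members against 17.1% of all genes called higher. Sox6 was lower, by -1.29 ± 0.29 (edgeR adjusted p = 0.00071078), 1 of 6 members against 12.6% of genes called lower. Sox11 passed the adjusted p but not the size limit, with 0.91 ± 0.13 (edgeR adjusted p = 1.9969e-06). Sox2 differed by 0.13 ± 0.15 (edgeR adjusted p = 0.47167), Sox9 by -0.03 ± 0.12 (edgeR adjusted p = 0.87294) and Sox5 by -0.03 ± 0.17 (edgeR adjusted p = 0.9143). The Sox6 call rested on the posterior library, since without it only the whole-gland pituicyte-like sum remained and the value was -1.21 (edgeR adjusted p = 0.078091). With cells above 10% mitochondrial UMIs left out, which kept 163 of 1105 pituicyte-like cells of the posterior library, neither Sox6 (-1.01, edgeR adjusted p = 0.24178) nor Sox8 (1.72, edgeR adjusted p = 0.055579) was called.

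Within the folliculostellate-like class the members were not level. It consisted of 3 clusters, named here by their leading genes: a Krt17-led cluster of 670 cells (keratin 17), a Guca2b-led cluster of 1466 cells (uroguanylin) and a Hes5-led cluster of 725 cells (a Notch target). Sox9 was at 348 CPM in the Krt17-led cluster of the anterior library, 406 in the posterior library and 256 and 258 in the lanes. In the Hes5-led cluster it was at 102, 128, 108 and 89.1 CPM, and in the Guca2b-led cluster at 211, 143, 156 and 143 CPM, between the others in every library. The ratio of the Krt17-led to the Hes5-led cluster was 3.40 (2.77 to 4.21) in the anterior library, 3.17 (2.31 to 4.46) in the posterior library and 2.58 (2.25 to 2.98) in the whole glands.

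Sox11 was likewise highest in the Krt17-led cluster of every library, at 125, 120, 112 and 110 CPM in the Krt17-led cluster against 47.6, 48.0, 50.9 and 50.9 CPM in the Hes5-led cluster and 77.8, 46.7, 70.7 and 64.9 CPM in the Guca2b-led cluster. Sox8 ran the other way. It was at 18.9, 8.58, 17.1 and 12.2 CPM in the Krt17-led cluster and 43.5, 48.0, 22.6 and 37.2 CPM in the Hes5-led cluster, a ratio of 0.435 (0.293 to 0.652) in the anterior library, 0.179 (0.0877 to 0.372) in the posterior library and 0.509 (0.369 to 0.706) in the whole glands. The Guca2b-led cluster held 29.8, 23.8, 28.1 and 30.0 CPM of Sox8, above the Krt17-led cluster in every library and close to the Hes5-led cluster in the whole glands (ratio of Guca2b-led to Hes5-led 0.990, 0.744 to 1.33). In lane 1 alone the interval of the ratio of Krt17-led to Hes5-led reached 1 (0.755, 0.476 to 1.23). With cells above 10% mitochondrial UMIs left out, the posterior Sox8 ratio was 0.524, and the anterior Sox11 ratio of Krt17-led to Hes5-led was 4.91 in place of 2.63. Sox2 varied less, at 333, 244, 315 and 349 CPM in the Krt17-led cluster and 352, 388, 344 and 385 CPM in the Hes5-led cluster. Its ratio of Krt17-led to Hes5-led was 0.944 (0.837 to 1.07) in the anterior library and 0.629 (0.517 to 0.772) in the posterior library. In the whole glands it was 0.912 (0.841 to 0.989).

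The clusters differed in depth, with medians of 11013.5 UMIs per cell in the Krt17-led, 6458 in the Guca2b-led and 4544 in the Hes5-led cluster, and the part of this in the order of the levels was not tested. Cells of 1 library are not replicates, and these ratios carry no test. For Sox9, Sox11 and Sox8 the direction was the same in the anterior library, the posterior library and the whole glands.

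**Figure D3:**
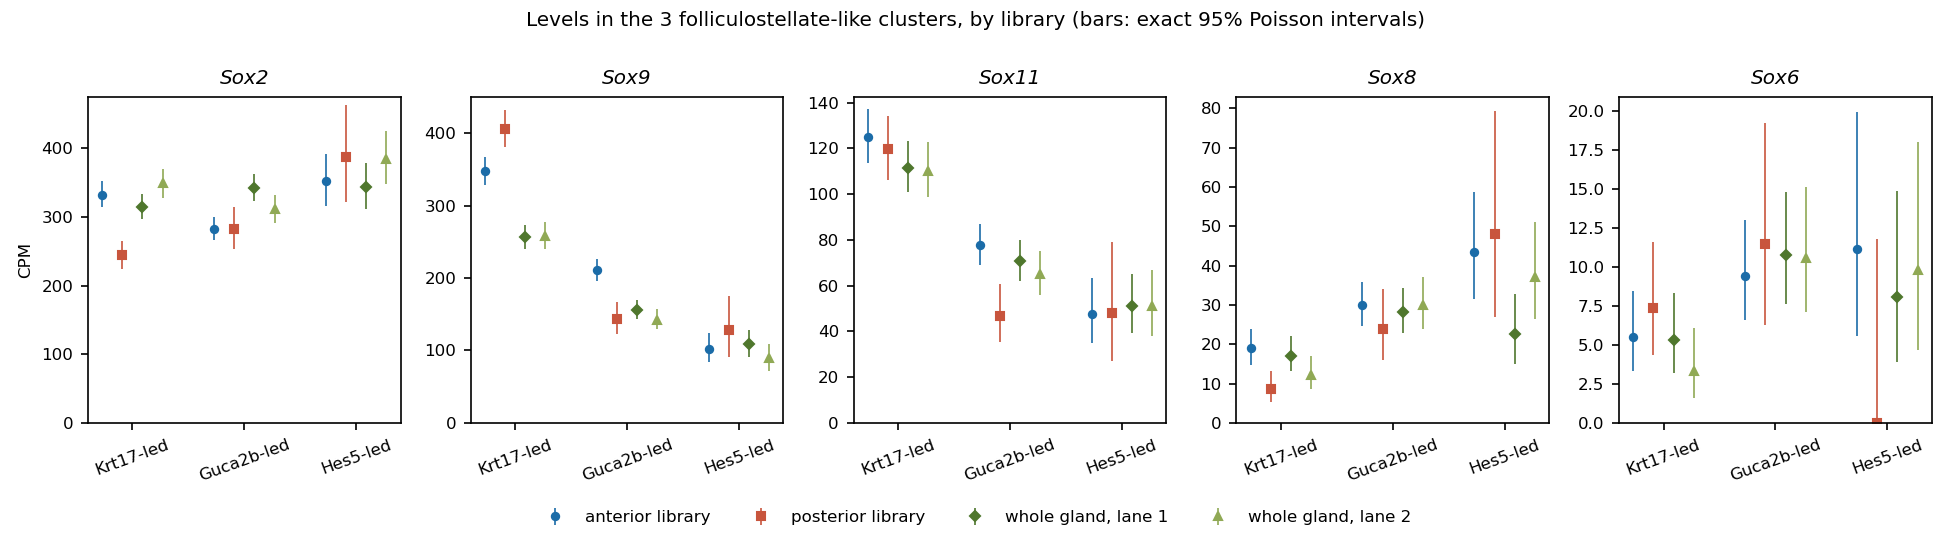
Levels of Sox members in CPM in the Krt17-, Guca2b- and Hes5-led clusters of folliculostellate-like cells, with 1 point per library and exact 95% Poisson intervals. Sox9 and Sox11 are lower and Sox8 is higher in the Hes5-led than in the Krt17-led cluster. Sox2 lies between 244 and 388 CPM and is somewhat higher in the Hes5-led than in the Krt17-led cluster of each library.

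Pituicyte-like cells formed 2 clusters, a Csap1-led one with a median of 11510 UMIs per cell and a Tekt3-led one with a median of 1918.5. In the posterior library Sox11 was at 59.4 CPM in the first and 20.3 CPM in the second, a ratio of 2.93 (1.91 to 4.72). Sox9 was at 272 and 167 CPM (ratio 1.63, 1.40 to 1.91), Sox6 at 22.3 and 11.1 CPM (ratio 2.02, 1.13 to 3.98) and Sox2 at 333 and 284 CPM (ratio 1.17, 1.04 to 1.32). All 4 were higher in the deeper cluster, and the part of depth in this was not tested.

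Among the endocrine classes the members parted: Sox2 was called higher in melanotroph- and corticotroph-like cells, Sox6 in corticotroph-like, Sox11 in gonadotroph- and melanotroph-like and Sox9 in lactotroph-like cells. Sox2 was at 38.4 CPM in melanotroph-like cells of the posterior library and 40.8 and 55.0 CPM in the lanes, present in 42.0%, 32.3% and 47.1% of cells. Melanotrophs are the proopiomelanocortin cells of the intermediate lobe. Corticotroph-like cells, which make the same precursor in the anterior lobe, held 23.2 CPM in the anterior library, 35.0 in the posterior library and 27.0 and 18.2 in the lanes. Thinned to 2000 UMIs, 7.38% of melanotroph-like cells of the posterior library and 4.76% of corticotroph-like cells of the anterior library held a Sox2 UMI, against 0.277% of somatotroph-like and 0.0448% of lactotroph-like cells of the anterior library. The median depths of these 4 groups were 15524, 6893, 9164 and 15119 UMIs.

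Against the mean of the other endocrine classes, Sox2 was higher in melanotroph-like cells by 3.84 ± 0.21 (edgeR adjusted p = 4.4734e-13) and in corticotroph-like cells by 2.19 ± 0.25 (edgeR adjusted p = 1.8318e-07). Melanotroph-like cells had 2 of 6 members called higher, against 9.87% of genes, and corticotroph-like cells 2 of 6, against 7.35%, with 2 lower (Sox9 and Sox11), against 6.06%. Sox2 was lower in lactotroph-like cells by -4.45 ± 0.37 (edgeR adjusted p = 4.8617e-10), where the level was 0.262 CPM in the anterior library, 1.02 in the posterior library and 0.0997 and 0.367 in the lanes. It was lower too in somatotroph-like cells, by -2.18 ± 0.31 (edgeR adjusted p = 4.9052e-06), with 1.10, 3.51, 1.29 and 1.78 CPM. Lactotroph-like cells had 2 of 6 members called lower (Sox2 and Sox6), against 6.66% of genes, and somatotroph-like cells 2 (Sox2 and Sox11), against 6.32%. Without whole-gland lane 1 the lactotroph-like Sox6 (-1.31, edgeR adjusted p = 1), somatotroph-like Sox11 (-1.45, edgeR adjusted p = 0.055983) and corticotroph-like Sox9 (-1.64, edgeR adjusted p = 1) differences were no longer called, nor was Sox9 without lane 2 (-1.73, edgeR adjusted p = 0.094472). Without lane 1 the thyrotroph-like sums held 0 Sox6 UMIs and at most 1 Sox9 UMI. The Sox6 and Sox9 fits without lane 1 therefore cannot decide whether those differences depend on it. The corticotroph-like Sox9 call was lost in 6 of 11 settings in all. It was lost with doublets kept (-1.60, edgeR adjusted p = 0.099994) and at the 10% mitochondrial limit (-2.51, edgeR adjusted p = 0.067731). Finer clusters (-2.16, edgeR adjusted p = 0.052266) and leaving out cells with over 10% hormone UMIs (-2.24, edgeR adjusted p = 0.056452) also lost it. Leaving out cells with a UMI of S100b, the glial calcium-binding protein used as a folliculostellate marker, left Sox2 at 23.1, 37.9, 27.1 and 18.6 CPM in corticotroph-like cells and at 35.9, 36.5 and 46.3 CPM in melanotroph-like cells.

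Thyrotroph-like cells gave an uneven value, 79.2 CPM of Sox2 in the posterior library against 11.0, 11.5 and 13.3 CPM elsewhere. The posterior value came from 21 UMIs in 23 cells, 11 of them in 3 cells, and that library does not enter the test of this class. No difference was called (0.89 ± 0.56, edgeR adjusted p = 0.34975). By edgeR 0 of 6 members were called there, against 3.99% of genes higher and 2.25% lower, and none of the 6 had an unadjusted p under 0.05. Gonadotroph-like cells held 7.74, 7.74, 2.96 and 4.39 CPM of Sox2, below the proopiomelanocortin cells and above the somatotroph-like cells in each library.

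Sox6 stood out in corticotroph-like cells, at 13.5 CPM in the anterior library, 14.8 in the posterior library and 15.2 and 17.5 in the lanes. All 4 values exceeded the folliculostellate-like range. Somatotroph-like cells held 1.69, 1.37, 1.08 and 1.39 CPM and lactotroph-like cells 0.204, 0.169, 0.233 and 0.0367 CPM. Against the other endocrine classes Sox6 was higher in corticotroph-like cells by 4.09 ± 0.32 (edgeR adjusted p = 4.6316e-10). The melanotroph-like cells did not share it, with 5 UMIs over 526 cells of the posterior library, 0.556 CPM.

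Sox11 had its endocrine peak in gonadotroph-like cells, which make luteinizing and follicle-stimulating hormone. It was at 40.3 CPM in the anterior library (104 UMIs), 14.5 in the posterior library (15 UMIs), 21.5 in lane 1 (58 UMIs) and 34.6 in lane 2 (71 UMIs), present in 30.2%, 20.9%, 15.4% and 29.0% of cells. Against the other endocrine classes it was higher by 4.37 ± 0.19 (edgeR adjusted p = 8.1569e-15), 1 of 6 members against 8.72% of genes. The lanes of the same suspension differed, with a ratio of lane 2 to lane 1 of 1.61 (1.12 to 2.32). Corticotroph-like cells were at the other end, with 0 UMIs in the anterior library and 2.70, 0.381 and 0.364 CPM in the others, a fitted difference of -3.95 ± 0.64 (edgeR adjusted p = 3.386e-05).

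Melanotroph-like cells held 5.56, 5.26 and 3.59 CPM of Sox11 and were higher than the other endocrine classes by 1.66 ± 0.30 (edgeR adjusted p = 0.00014657). Without the posterior library 7 UMIs remained and the call was lost (1.58, edgeR adjusted p = 0.17568). Sox9 was highest, among the endocrine classes with over 1000 cells, in lactotroph-like cells, the prolactin cells, at 3.81, 5.59, 3.82 and 4.77 CPM against 1.61, 2.90, 1.72 and 1.63 CPM in somatotroph-like cells. The smaller gonadotroph-like class ranged from 2.71 to 9.67 CPM and overlapped it. Against the mean of the log levels of the other endocrine classes the lactotroph-like difference was 2.45 ± 0.25 (edgeR adjusted p = 1.7071e-08), 1 of 6 members against 10.2% of genes. That mean includes thyrotroph-like sums with 0 and 1 Sox9 UMIs and corticotroph-like sums with 2 and 2. The size of the difference is therefore not dependable. The thinned share with a Sox9 UMI was 0.583% (0.311 to 0.995) of lactotroph-like cells in the anterior library, far under the 31.0% of folliculostellate-like cells, and 0 of 315 corticotroph-like cells there. Sox5 was called in no endocrine class, and its highest endocrine values were 12.4, 20.3, 10.4 and 11.2 CPM in gonadotroph-like cells (0.78 ± 0.22, edgeR adjusted p = 0.010413).

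**Figure D4:**
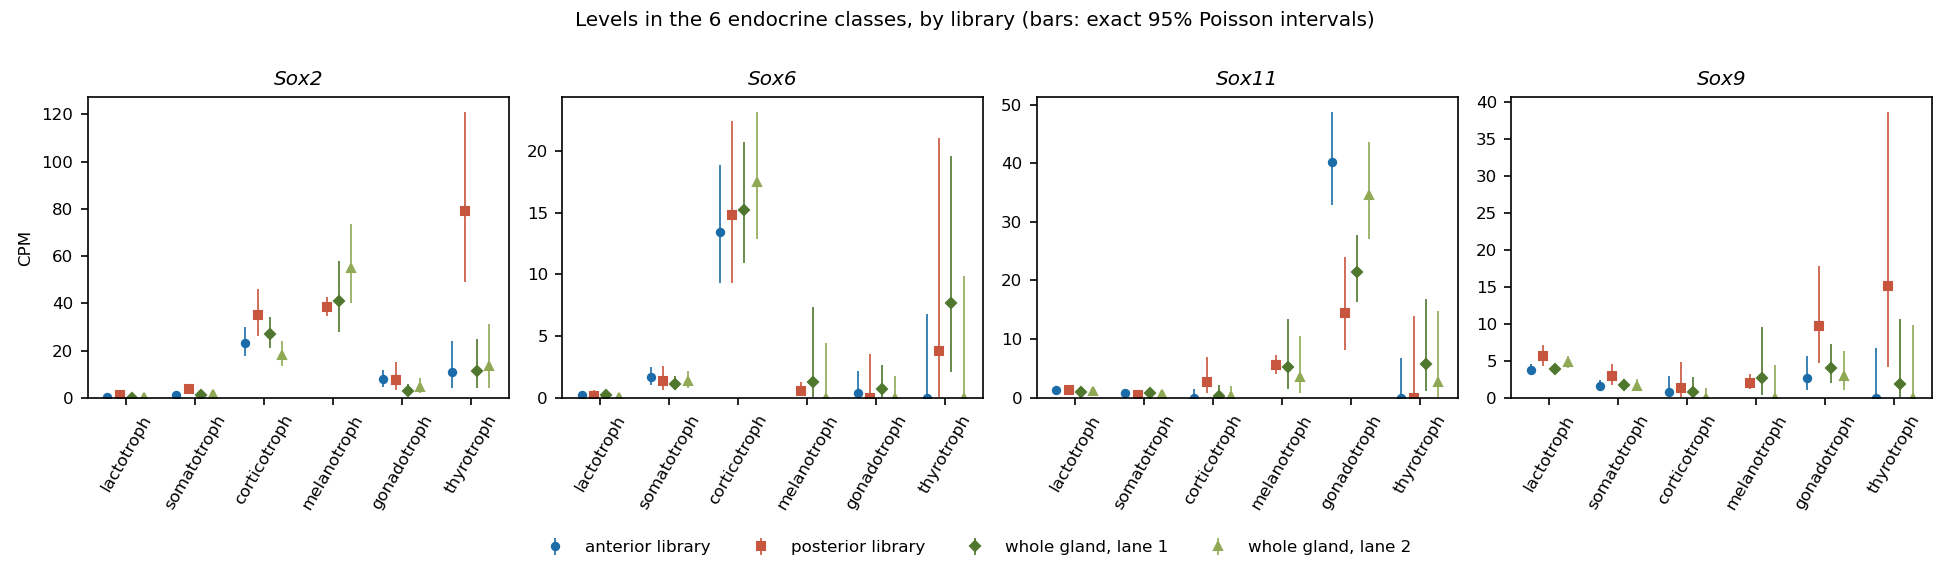
Levels of Sox members in CPM in the 6 endocrine classes, with 1 point per library and exact 95% Poisson intervals. Sox2 is high in melanotrophs and corticotrophs, Sox6 in corticotrophs and Sox11 in gonadotrophs, where the 4 libraries range from 14.5 to 40.3 CPM.

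Each class was also set against the mean of all others. All 6 members were called higher in folliculostellate-like cells, against 18.9% of genes, and in pituicyte-like cells, against 17.7%. Among endocrine cells the calls were fewer: Sox6 was higher (9.94% of genes) and Sox9 and Sox11 lower (8.74%) in corticotroph-like cells, and Sox11 was higher (11.2%) and Sox2, Sox6 and Sox9 lower (8.09%) in gonadotroph-like cells. Melanotroph-like cells had Sox2 higher (11.7%) and Sox9 lower (7.4%). In lactotroph-like cells Sox2, Sox6 and Sox11 were lower (8.15%), in somatotroph-like cells Sox2, Sox9 and Sox11 (8.94%) and in thyrotroph-like cells Sox9 (5.53%). Several of the lower calls were lost with 1 library left out. Without lane 1, Sox9 was no longer called in corticotroph-, gonadotroph-, melanotroph- and somatotroph-like cells (-3.94, -0.84, -1.09 and -1.32), nor Sox6 in gonadotroph- and lactotroph-like cells (-2.56 and -2.38), each at an edgeR adjusted p of 1. Thyrotroph-like cells then held 0 Sox6 UMIs in both sums, since all 4 lay in lane 1, and at most 1 Sox9 UMI. A class with so few UMIs has no dependable fitted level, so these fits cannot decide whether the differences depend on lane 1. The Sox9 fits with all libraries share this limit, since the thyrotroph-like sums there held 0 and 1 UMIs. Without the posterior library the calls of Sox6 in gonadotroph-like (-1.05, edgeR adjusted p = 1) and lactotroph-like cells (-1.57, edgeR adjusted p = 1) and of Sox9 in melanotroph-like cells (-2.11, edgeR adjusted p = 0.088187) were lost. Without the anterior library those of Sox9 in gonadotroph-like (-0.80, edgeR adjusted p = 0.088953) and thyrotroph-like cells (-1.26, edgeR adjusted p = 0.19486) were lost. Sox6 had 0 UMIs in endothelial-, fibroblast- and macrophage-like cells of the whole glands, so its fits without the posterior library rest on few UMIs in those classes.

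Outside the glial and endocrine classes Sox2 reached its highest level in the class named fibroblast-like, of which 188 of 330 cells took the name mural when clusters were finer (mural cells wrap small vessels). The finer fibroblast cluster held 4 cells of the anterior library, 120 of the posterior library and 11 and 7 of the lanes. The mural cluster held 44, 39, 59 and 56, so outside the posterior library the fibroblast-like class was mostly mural. Fibroblast-like cells, in the broader class, held 34.1, 21.2, 36.3 and 62.7 CPM of Sox2, and 3 of 6 members (Sox2, Sox8 and Sox9) were called higher there than in the other classes, against 17.8% of genes. The highest Sox2 value, that of lane 2, lay above those of melanotroph-like cells. The Sox2 UMIs were concentrated: 24 of 37 in the whole glands lay in 3 cells, and 54.5% of the cells with Sox2 also held S100b against 14.8% of those without. Without the anterior library the fibroblast-like calls of Sox2 (0.90, edgeR adjusted p = 0.17366) and Sox9 (0.59, edgeR adjusted p = 0.25546) were lost, as was Sox2 without lane 2 (0.91, edgeR adjusted p = 0.024535), and that of Sox8 without the posterior library (1.31, edgeR adjusted p = 0.65058). Without the cells holding S100b, Sox2 was at 12.0, 7.81, 26.1 and 11.8 CPM. In endothelial-like cells all 11 Sox2 UMIs of the anterior library lay in 3 cells, and without cells holding S100b Sox2 was at 1.18, 6.74, 0.733 and 8.95 CPM against 12.2, 9.33, 13.8 and 27.0 CPM with them. Of cells with Sox2, between 40.0% and 85.7% also held S100b over the libraries of these 2 classes, and the part of mixed or mislabelled cells in these levels was not tested. Macrophage-like cells had 1 of 6 members called, Sox5, which was lower by -2.50 ± 0.47 (edgeR adjusted p = 7.6215e-05), against 16.6% of genes called lower.

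Libraries of 1 class were set side by side without a test, since each lobe had 1 library. Sox9 in folliculostellate-like cells was lower in the whole glands than in the anterior library, with a ratio of 0.735 (0.695 to 0.778), and higher in the posterior than in the anterior library, with a ratio of 1.18 (1.10 to 1.27). The lanes differed little (0.967, 0.898 to 1.04). Sox8 was lower in the posterior than in the anterior library (0.611, 0.456 to 0.808), as was Sox2 (0.856, 0.796 to 0.919). Of the 327 folliculostellate-like cells of the posterior library, 221 had over 10% mitochondrial UMIs, and in the other 106 cells Sox9 was at 136 CPM in place of 304. That value lay below the 257 CPM of all anterior folliculostellate-like cells. Of those 847 cells 619 were over the limit, so this sets limited cells against unlimited ones. With the limit in both libraries, Sox2 was at 265 CPM in the anterior and 313 CPM in the posterior library. Sox8 was then at 22.9 and 22.4 CPM. The lower posterior levels of Sox2 and Sox8 were thus not kept under the limit. Of the 1209 posterior Sox9 UMIs, 247 lay in 3 cells.

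Detection of members in the same cell was read within 1 class and library after thinning to 2000 UMIs. Sox9 was found about as often in folliculostellate-like cells with a Sox2 UMI as in those without, in 31.9% (27.3 to 36.9) and 30.2% (25.9 to 34.8) in the anterior library and in 24.0% (21.0 to 27.1) and 24.1% (21.2 to 27.2) in the whole glands. Pituicyte-like cells of the posterior library gave 36.6% (31.7 to 41.7) and 36.2% (31.8 to 40.7). Sox11 was found more often in cells with a Sox9 UMI than in those without, in 19.9% (16.0 to 24.3) against 11.4% (9.66 to 13.4) of folliculostellate-like cells in the whole glands and 14.7% (10.9 to 19.2) against 8.41% (6.20 to 11.1) of pituicyte-like cells in the posterior library. In the anterior library the shares were 17.9% (13.4 to 23.2) and 13.4% (10.7 to 16.6), and the intervals overlapped there and in the pituicyte-like cells. Both genes were higher in the Krt17-led cluster, and within that cluster in the whole glands the Sox11 shares were 27.1% (19.7 to 35.5) and 16.6% (11.9 to 22.2), again with overlapping intervals.

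**Figure D5:**
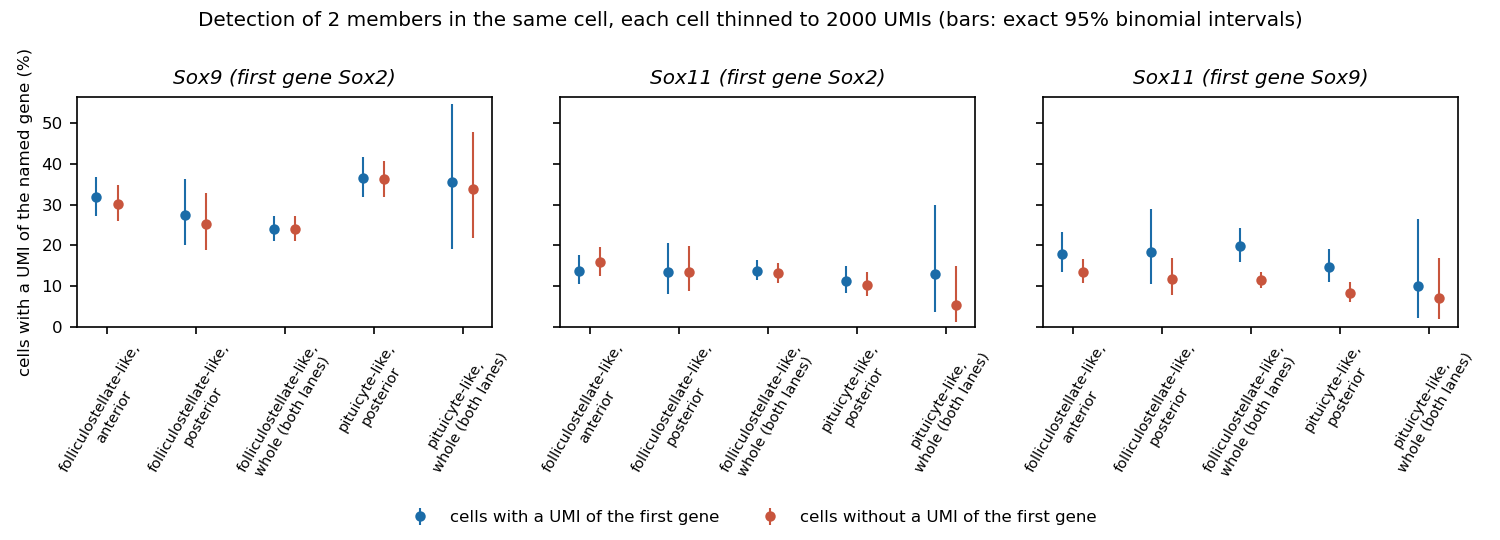
Share of cells (%) with a UMI of one member among cells with (blue) and without (red) a UMI of another, each cell thinned to 2000 UMIs, with exact 95% binomial intervals. Sox9 by Sox2 is level in all 5 groups, while Sox11 by Sox9 is 19.9% against 11.4% in whole-gland folliculostellate-like cells.

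Genes that work with or under Sox factors were read from lists, beside 22.8% of all genes called higher and 11.4% lower in folliculostellate-like than in hormone cells, and 20.8% higher and 13.9% lower in pituicyte-like cells. Of 15 tested partner and progenitor factors, 14 were called higher in folliculostellate-like than in hormone cells and 0 lower, with a median log2 fold change of 5.23. High levels of this list were not particular to that class. In endothelial-like cells 11 of the 15 were higher and 2 lower than in the other classes, with a median of 2.90. Of all genes, 24.8% were called higher and 13.7% lower there. The most abundant in folliculostellate-like cells were Klf4, a pluripotency and epithelial factor (785 CPM in the dissected and 672 CPM in the whole glands), Hes1, a Notch target (615 and 658 CPM), and Nfia, a gliogenic factor (601 and 548 CPM). Pitx1, a pituitary lineage factor, was the exception at -0.69 ± 0.14 (edgeR adjusted p = 0.00011698), under the size limit. In pituicyte-like cells 9 of the 15 were called higher and 4 lower, among them Pitx1, Pax6 and Klf4, with a median of 2.51. Pitx1 was at 2.69 CPM in pituicyte-like cells of the dissected glands against 113 CPM in folliculostellate-like cells. The glial classes that both held Sox2 and Sox9 thus differed in Pitx1, by 5.46 ± 0.28 on the log2 scale (edgeR adjusted p = 7.2531e-14).

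Cartilage genes known to be driven by Sox9 with Sox5 and Sox6 parted between the glial classes. Of 8 tested, 4 (against 22.8% of all genes) were higher (Col9a3, Col9a2, Col27a1 and Col11a2) and 1 lower (Col11a1) in folliculostellate-like cells than in hormone classes, with a median of 1.19. In pituicyte-like cells the same 4 were higher and Col2a1 was lower, with a median of 1.11 over the 8 and of 2.10 without Acan, which had no UMI in pituicyte-like cells. Col9a3, a chain of collagen IX, was at 575 CPM in pituicyte-like cells of the dissected glands and 513 in the whole glands, against 3.19 and 2.24 CPM in folliculostellate-like cells (-7.53 ± 0.28, edgeR adjusted p = 7.1893e-16). Col9a2 was at 154 and 92.0 CPM against 2.13 and 2.70 CPM. Col2a1, the collagen that gives cartilage its bulk, was at 0.671 and 1.14 CPM in pituicyte-like cells, so the pattern was not that of cartilage as a whole.

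Of 6 genes tied to Sox4 and Sox11, 3 were higher (Tead2, Dcx and Marcks) and 2 lower (Stmn1 and Tubb3) in folliculostellate-like than in hormone cells, with a median of 1.47, and 2 higher and 2 lower in pituicyte-like cells, with a median of -0.72. Marcks, a membrane-bound actin regulator, was at 443 and 432 CPM in folliculostellate-like cells, and Tubb3, a neuronal tubulin, at 9.34 and 10.7 CPM against a mean of 76.6 CPM over the hormone classes of the dissected glands. Of 8 tested Schwann and myelin genes that depend on Sox10, 2 were higher in folliculostellate-like cells (Pmp22 and Egr2), a share near the 22.8% of all genes, and 4 were higher and 1 lower in pituicyte-like cells. In endothelial-like cells 5 of the 8 were higher than in the other classes and 0 lower, beside 24.8% of all genes called higher. Pmp22, a peripheral myelin protein also made by other cells, was at 553 and 610 CPM in pituicyte-like cells and 131 and 110 CPM in folliculostellate-like cells, classes with 6 Sox10 UMIs in all. Egr2, which is also an immediate early gene, was at 382 and 303 CPM in folliculostellate-like cells and 2.35 and 7.95 CPM in pituicyte-like cells, and was the gene of this list that was lower there than in hormone cells.

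Of the remaining Sox genes, 9 were listed and 7 tested, and 6 of the 7 were called higher in endothelial-like cells, against 24.8% of genes. Sox17, an endothelial group F factor, was at 143 CPM in the anterior library, 263 in the posterior library and 137 and 123 in the lanes, and Sox18, of the same group, at 125, 346, 167 and 177 CPM. Sox18 was also found in gonadotroph-like cells, at 24.8, 19.3, 16.3 and 19.5 CPM, and was higher there than in the other endocrine classes by 5.42 ± 0.32 (edgeR adjusted p = 1.7958e-12). In folliculostellate-like cells 1 of these 7 genes (Sox13) was higher than in hormone cells and in pituicyte-like cells 2 (Sox13 and Sox7), beside 22.8% and 20.8% of all genes. The members of the set, by contrast, had 1 of 6 called higher in endothelial-like cells. It was Sox8, on 8 UMIs (1.67 ± 0.73, edgeR adjusted p = 0.049572), a call lost under 8 of 11 alternatives. Called lower were 2, Sox5 and Sox11, against 13.7% of genes. These calls were lost under 2 and 3 of 11 alternatives.

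Across the 22 sums of class and preparation, which share libraries and preparation, the members' log levels ran together to different degrees. The highest Pearson correlation was 0.885 for Sox8 and Sox9, followed by 0.815 for Sox9 and Sox11, and the lowest was 0.344 for Sox6 and Sox11. The genes outside the family with the most similar pattern to Sox2 were Id4 (0.928), Sqor (0.922) and Shroom3 (0.908). For Sox9 they were Gpr37l1 (0.976), a glial receptor, Fam181b (0.972) and Fmod (0.971), and for Sox8 Lancl3 (0.954), Gxylt2 (0.951) and Slc6a8 (0.944), the creatine transporter. For Sox11 they were Kcna2 (0.903), Adh4 (0.872) and Pxmp2 (0.867), for Sox5 Sall2 (0.887), Scrn1 (0.880) and Dync2li1 (0.875), and for Sox6 Nadk2 (0.921), AC128610.1 (0.902) and Mrps26 (0.878).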

How the data were processed

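The authors deposited UMI counts per gene and barcode for 4 libraries in 1 matrix, made with Cell Ranger 3.1 per the submitters' processing notes. The authors' list of barcodes, which holds no measurement, marks each library by a suffix, per the labels. The genome build behind the counts is not given in the sources used here. Kept barcodes had 1000 or more UMIs, 500 or more genes and no more than 20% of UMIs from mitochondrial genes, 604 doublets (Scrublet score above 0.25) were left out, and clusters came from scanpy 1.11.5 (1984 variable genes, 30 components, 15 neighbors, Leiden 1.0). UMIs summed per class and preparation (at least 50 cells each) were tested with edgeR 4.0.16 (TMM, filterByExpr, class and preparation as terms, 10 residual degrees of freedom). A contrast with several classes uses the mean of their log levels. In the dissected glands, folliculostellate- and hormone-like cells came from the anterior library and pituicyte- and melanotroph-like cells from the posterior library. The test was checked on simulated counts. Nothing in the labels ties the 2 preparations to separate days or cohorts, so p-values measure only the spread between these samples. Members, lists and tests were chosen with earlier results of these data known. The rule for named genes took all members, the 3 genes most like each tested member, and from each list the 3 most abundant and any alone in its direction.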

Additional observations from a re-analysis of the deposited data

How the results depend on the processing

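Of 973 comparisons of a result with an alternative, 862 were counted as the same. Of the rest, 58 lost the call, 2 gained it, 51 values moved and 0 called differences reversed. Counted as the same were kept calls, counts of calls that changed little and levels inside their interval. So were uncalled differences that changed sign, as Sox2 did between the glial classes (-0.11 to 0.37). Of 65 log2 fold changes, 39 kept their call in every setting. The moved values include all 17 shares thinned to 4000 UMIs, where each cell keeps more UMIs than at 2000. The alternatives were DESeq2, no filter on low counts, doublets kept, a 10% mitochondrial limit, finer clusters, both dissected libraries summed, cells with over 10% hormone UMIs left out, thinning to 4000 UMIs, and leaving out each library. Leaving out cells with an S100b UMI, added after seeing the data, was also counted, with 24 values the same and 6 moved. All 6 members stayed higher in folliculostellate-like and in pituicyte-like cells than in hormone classes when each library was left out (6 to 6 higher, 0 to 0 lower). At the 10% mitochondrial limit Sox5 was no longer called in pituicyte-like cells (1.17, edgeR adjusted p = 0.091531). Between the glial classes the count called higher was 1, and 1 to 2 with a library left out (2 without whole-gland lane 2, where Sox11 reached 1.03). The count called lower was 1, and 0 to 1 with a library left out, and 0 at the 10% mitochondrial limit. Over each class against the others, 19 were higher (17 to 18 with a library left out) and 16 lower (10 to 16, with 10 without whole-gland lane 1), and 10 were lower at the 10% mitochondrial limit. Over the endocrine classes 6 were higher (5 to 8) and 6 lower (3 to 6, with 3 without whole-gland lane 1), and 3 at the 10% limit. In some settings with lost calls a class held 0 UMIs in both sums, as thyrotroph-like cells for Sox6 without whole-gland lane 1. Such a class has no finite fitted level, and its part in the lost calls was not tested. Nor was the cause of the other changes tested. Fibroblast-like contrasts could not be fitted with finer clusters. The hormone classes summed into 1 group, an alternative added after seeing the data, gave the same calls between glial and hormone cells and between the glial classes (Sox6 -1.31, edgeR adjusted p = 0.0016171). The fits compared classes within each preparation through the preparation term. No paired analysis was possible because the library groups share fewer than 2 replicate numbers, so no further block by replicate number could be added. Depth limits Sox10 and Sox21, and Sox8 outside folliculostellate-like cells.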
